A study of Mus musculus with 8 samples.

Results

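The ligands described here are 8 members of the tumour necrosis factor (TNF) superfamily: Tnf, Ltb, Tnfsf9, Tnfsf14, Tnfsf4, Tnfsf10, Tnfsf15 and Tnfsf13b. They are 8 of 18 superfamily ligands listed and were chosen with earlier results of these data known. Each was found by gene name in the platform annotation and was read by 1 probe set. Thus 8 of 34472 probe sets and 8 of 22180 named genes are considered. Their mRNA was read on 8 arrays (Affymetrix Mouse Gene 2.0 ST) hybridised with RNA of neutrophils that had entered an air pouch under the skin of mice after injection of lipopolysaccharide (LPS), a bacterial cell wall component that acts through Toll-like receptor 4. Each array held a pool from 5 mice, purified by negative selection to 98% Ly6G-positive cells. The Arf6 conditional knockout (cKO, flox+/+Cre+/+) had 3 arrays, the Cre control (flox-/-Cre+/+) had 2 and the flox control (flox+/+Cre-/-) had 3. All groups received LPS, so no unstimulated level is known. The cKO shares the Cre transgene with the Cre control and the floxed Arf6 allele with the flox control. The promoter of the Cre transgene, the strain background and the age of the mice are not stated in the sources used. By its title, the study asked about Arf6, a small GTPase of membrane traffic and the actin cytoskeleton, in neutrophil glycolysis and effector functions.

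TNF superfamily ligands are mostly made as trimers anchored in the cell membrane, and several are released by proteases. They act on receptors of the TNF receptor superfamily, which recruit TRAF adaptors to activate NF-kB and MAP kinases, or death domain proteins that lead to cell death. In myeloid cells LPS induces Tnf within a short time through NF-kB and through control of its mRNA decay, and interferons are known inducers of Tnfsf10 and Tnfsf13b. Neutrophils are a known source of TNF and of the B cell survival factor BAFF, the product of Tnfsf13b.

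Values are the deposited log2 signals after Robust Multiarray Analysis (RMA). Arf6 itself read 6.06 to 6.49 in the cKO and 7.68 to 8.20 in the 5 control arrays, so the cKO arrays followed their titles and genotype labels. Another label field names other genotypes. Arf6 did not separate the control groups (Cre minus flox -0.20, SE 0.19). Which control is which therefore rests on the titles and genotype labels alone. Of 10 neutrophil markers, 9 lay above the median of all values (5.45) on every array, the exception being the granule peptide gene Camp. Xist was low in flox control replicate 1 (5.46) and the Y-linked gene Eif2s3y was low in cKO replicate 1 (4.08), which sets these pools apart from the rest, and the mean correlation with other arrays was lowest for the first of them (0.981). Of the ligands, 7 passed the filter, a level above 5.45 on at least 2 arrays, and did so on all 8 arrays. Tnfsf4, on chromosome 1, was above it on 0 arrays. No ligand passed an adjusted p of 0.05 in any comparison, so the differences below are values with their errors.

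Tnf and Ltb are adjacent protein-coding genes on chromosome 17, with Lta next to Tnf. TNF is the founding cytokine of the family and acts on the receptors TNFR1 and TNFR2, while lymphotoxin beta holds lymphotoxin alpha at the membrane and acts on the lymphotoxin beta receptor. Their promoter windows, from 250 bases before to 50 bases after the transcript start (RefSeq, GRCm38.p6), are shown because these neighbours read differently over the groups. Capitals mark motif matches: TATAAA in Tnf (chr17:35201958-35202257, minus strand) and the NF-kB consensus in Ltb (chr17:35194257-35194556, plus strand).
Tnf: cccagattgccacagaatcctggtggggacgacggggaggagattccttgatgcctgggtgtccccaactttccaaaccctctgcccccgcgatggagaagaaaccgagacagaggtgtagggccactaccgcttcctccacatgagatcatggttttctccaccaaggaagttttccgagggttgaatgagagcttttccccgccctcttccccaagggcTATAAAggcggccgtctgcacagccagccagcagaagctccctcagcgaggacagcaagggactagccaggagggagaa
Ltb: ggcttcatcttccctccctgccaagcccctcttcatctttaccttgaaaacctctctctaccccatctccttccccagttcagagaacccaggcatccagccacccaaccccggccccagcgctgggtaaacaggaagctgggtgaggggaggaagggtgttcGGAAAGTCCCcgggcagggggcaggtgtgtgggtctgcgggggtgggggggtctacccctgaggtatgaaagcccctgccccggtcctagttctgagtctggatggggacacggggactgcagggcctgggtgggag

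Tnf read 12.57, 12.20 and 12.93 in cKO replicates 1 to 3, 13.17 and 12.81 in the Cre controls, and 13.17, 12.83 and 12.71 in the flox controls. cKO replicates 1 and 2 lay below all 5 controls, and replicate 3 lay among them. The log2 fold change against the mean of both controls was -0.38 (SE 0.18, 95% interval -0.79 to 0.02, adjusted p = 0.551 by limma), or 76.7% of the control signal. It was -0.43 (SE 0.23) against the Cre control and -0.34 (SE 0.20) against the flox control, with adjusted p of 0.454 and 0.703. Leaving out cKO replicate 2 gave -0.20 against both controls, and leaving out replicate 3 gave -0.57. The control groups averaged 12.99 (Cre) and 12.90 (flox), a difference of 0.09 (SE 0.23). Tnf read close to the top of the scale, where the highest value of any array was 14.17.

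Ltb read 10.47, 10.25 and 10.84 in the cKO, 10.22 and 10.41 in the Cre controls, and 11.30, 11.37 and 10.84 in the flox controls. The cKO and the Cre control lay together, and the flox control stood above both. Against the flox control the log2 difference was -0.65 (SE 0.19, interval -1.06 to -0.23, adjusted p = 0.394) for the cKO and -0.85 (SE 0.21, interval -1.32 to -0.39, adjusted p = 0.109) for the Cre control. The flox control arrays are common to these comparisons. Between the cKO and the Cre control the difference was 0.20 (SE 0.21, interval -0.26 to 0.67). cKO replicate 3 and flox control replicate 3 both read 10.84, so that the arrays of those groups were separated by less than the second decimal. The third gene of the cluster, Lta, averaged 0.21 below the mean of both controls on the log2 scale (-0.21, SE 0.17), with readings of 5.88 to 6.69 over the 8 arrays.

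**Figure D1:**
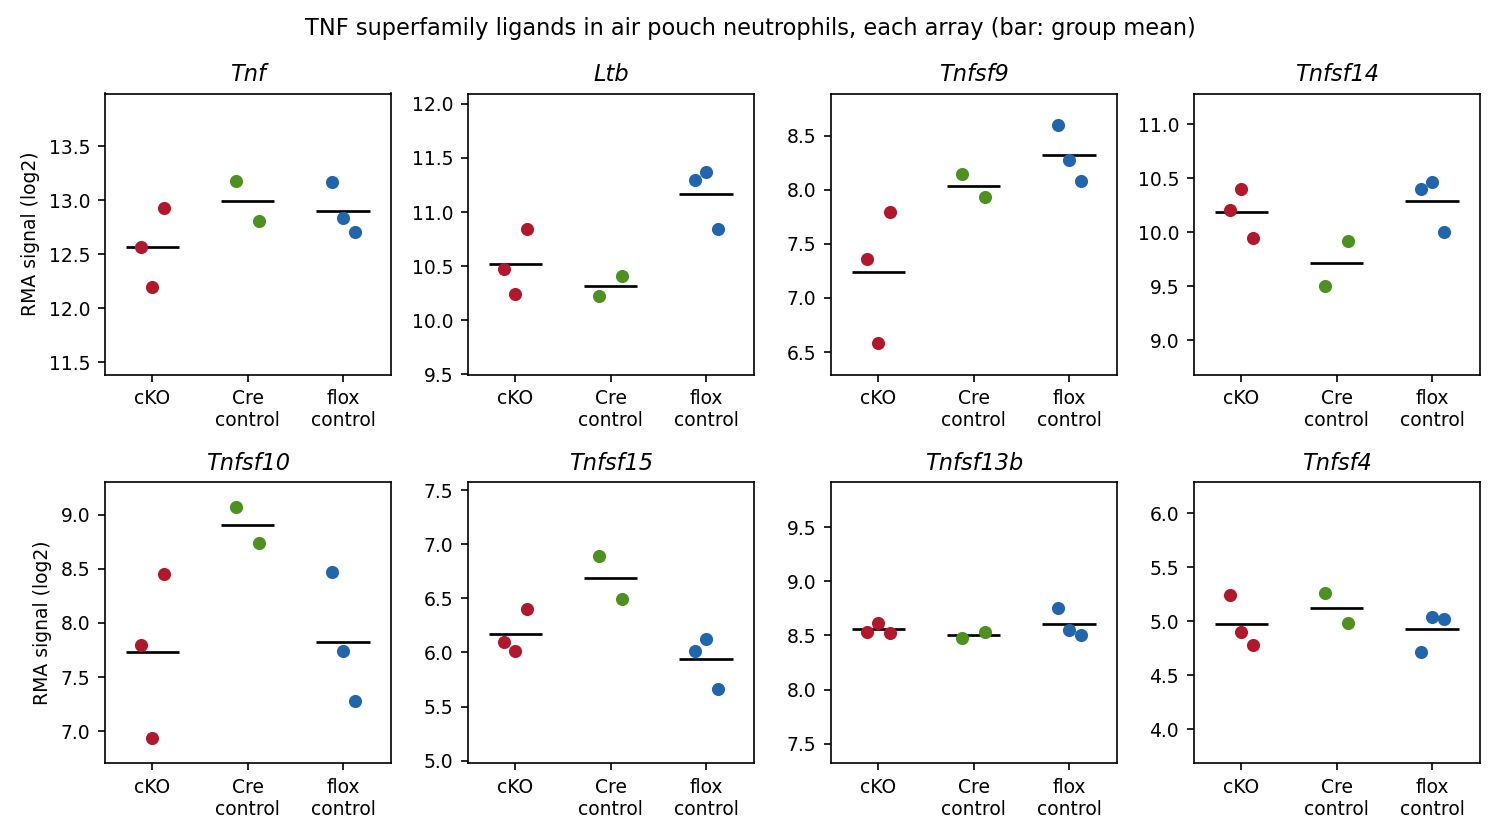
RMA signal (log2) of each ligand in every array by group; points are arrays, each a pool of 5 mice, the bar is the group mean, and every panel spans the same log2 range. Tnfsf9 is lower in all 3 cKO arrays than in the 5 controls, Ltb is highest on average in the flox control, and Tnfsf10 and Tnfsf15 are highest in the Cre control.

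Tnfsf9, Tnfsf14 and Tnfsf4 encode costimulatory ligands of T cells. Tnfsf9 (4-1BB ligand) binds Tnfrsf9 on activated T cells, Tnfsf14 (LIGHT) binds Tnfrsf14 and the lymphotoxin beta receptor, and Tnfsf4 (OX40 ligand) binds Tnfrsf4. Tnfsf9 and Tnfsf14 lie on chromosome 17 with Cd70 between them. Tnfsf9 read 7.36, 6.58 and 7.79 in the cKO, 8.14 and 7.93 in the Cre controls, and 8.60, 8.28 and 8.08 in the flox controls. All 3 cKO arrays were below all 5 control arrays, as in 2.25% of all probe sets, and no other ligand had this order. The means were 7.24 ± 0.61 (SD, n = 3) in the cKO, 8.04 ± 0.15 (SD, n = 2) in the Cre control and 8.32 ± 0.26 (SD, n = 3) in the flox control.

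Tnfsf9 was at 52.3% of the mean control signal, which is -0.93 in log2 (SE 0.24, 95% interval -1.48 to -0.39, unadjusted p = 0.00338 and adjusted p = 0.341 by limma). Against the Cre control it was -0.79 (SE 0.30, adjusted p = 0.296) and against the flox control -1.08 (SE 0.27, adjusted p = 0.348), while the control groups differed by -0.28 (SE 0.30), Cre minus flox. Of the 56 splits of 3 against 5 arrays, 1 separated the Tnfsf9 means this far, so the exact permutation p was 0.0179 (two-sided), the smallest that the design allows. The same test gave an exact p of 0.125 for Tnf and 0.357 to 0.911 for the other 6 ligands. The spread of Tnfsf9 within the cKO was wider than within either control, and the value against both controls was -0.60 when cKO replicate 2 was left out and -1.21 when replicate 3 was. Without the pools that differ in sex-linked transcripts it was -0.92 (adjusted p = 0.65). Its adjusted p was 0.0797 to 0.962 over 16 alternatives, and its unadjusted p was under 0.05 in all 16. Against the Cre control alone the unadjusted p was under 0.05 in 14 of 17 alternatives. There the value was -0.46 (unadjusted p = 0.0542) without cKO replicate 2 and -0.69 (unadjusted p = 0.127) without Cre control replicate 1.

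Tnfsf14 read 10.21, 10.40 and 9.95 in the cKO, 9.50 and 9.92 in the Cre controls, and 10.40, 10.46 and 10.01 in the flox controls. The Cre control was the low group, by -0.58 (SE 0.20, adjusted p = 0.213) against the flox control, and the cKO was 0.47 (SE 0.20, adjusted p = 0.336) above it. Without Cre control replicate 1, the lowest array, these values were -0.37 and 0.27, with unadjusted p of 0.164 and 0.303 by limma. cKO and flox control overlapped, at a difference of -0.10 (SE 0.18). Tnfsf4 read 4.78 to 5.24 in the cKO, 4.98 to 5.26 in the Cre control and 4.72 to 5.04 in the flox control. It was below the filter on every array, and in a fit without the filter its difference from both controls was -0.05 (SE 0.14). A level this dim does not show that the transcript was absent.

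Tnfsf10 and Tnfsf15 encode TRAIL, which can trigger death of sensitive cells, and TL1A, a costimulator that acts through the death receptor Tnfrsf25. They lie on chromosomes 3 and 4, and both were highest in the Cre control. Tnfsf10 read 7.80, 6.94 and 8.45 in the cKO, 9.07 and 8.74 in the Cre controls, and 8.47, 7.74 and 7.28 in the flox controls. The Cre control lay above all 6 other arrays, as it also did for Tnfsf15. Of all probe sets, 15.3% had the Cre control above all flox control arrays, and 16% had the cKO below all Cre control arrays. The share with this order against both groups at once was not counted. Tnfsf10 was 1.07 (SE 0.42, interval 0.13 to 2.02, adjusted p = 0.277 by limma) higher in the Cre control than in the flox control. The cKO was lower than the Cre control by -1.17 (SE 0.42, interval -2.12 to -0.23, adjusted p = 0.275). The cKO and the flox control differed by -0.10 (SE 0.38), a value of 0.30 without cKO replicate 2. The difference from the Cre control was -0.78 (unadjusted p = 0.054) without that array. Tnfsf10 spread over 2.13 log2 units in the 8 arrays, the widest range of the 8 ligands, and within the cKO alone its SD was 0.76.

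Tnfsf15 read 6.09, 6.01 and 6.40 in the cKO, 6.89 and 6.50 in the Cre controls, and 6.02, 6.13 and 5.67 in the flox controls. The Cre control lay above the flox control by 0.76 (SE 0.19, interval 0.33 to 1.18, adjusted p = 0.111). The cKO was 0.52 lower than the Cre control (log2 -0.52, SE 0.19, adjusted p = 0.275) and 0.23 (SE 0.17, adjusted p = 0.76) above the flox control. Without Cre control replicate 1 the difference from the Cre control was -0.33 (unadjusted p = 0.192). Tnfsf15 was dim in every group.

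Tnfsf13b was the most even of the ligands. It read 8.53, 8.61 and 8.52 in the cKO, 8.48 and 8.53 in the Cre controls, and 8.76, 8.55 and 8.50 in the flox controls. The difference from both controls was 0.00 (SE 0.10), with a 95% interval of -0.23 to 0.23, so a change beyond 0.23 log2 units in either direction lies outside that interval. Flox control replicate 1 was the highest array. The promoter windows of Tnfsf10 (chr3:27316827-27317126, plus strand) and of the second Tnfsf13b transcript start (chr8:10006383-10006682, plus strand) are shown because both genes are known interferon targets, yet Tnfsf10 had the widest and Tnfsf13b the narrowest range over the arrays. Capitals mark a GAAA repeat with a gap of any 2 bases, as in interferon response elements, and TGANTCA, the AP-1 site. Both were found as exact matches in Tnfsf13b and neither in Tnfsf10. Near matches were not searched, so a similar element in Tnfsf10 would be missed.
Tnfsf10: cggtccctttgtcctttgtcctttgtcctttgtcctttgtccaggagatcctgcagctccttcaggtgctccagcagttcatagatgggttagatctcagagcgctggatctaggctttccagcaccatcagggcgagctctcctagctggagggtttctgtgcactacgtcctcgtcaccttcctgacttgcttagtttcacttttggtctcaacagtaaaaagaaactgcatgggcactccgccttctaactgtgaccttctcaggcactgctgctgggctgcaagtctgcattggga
Tnfsf13b: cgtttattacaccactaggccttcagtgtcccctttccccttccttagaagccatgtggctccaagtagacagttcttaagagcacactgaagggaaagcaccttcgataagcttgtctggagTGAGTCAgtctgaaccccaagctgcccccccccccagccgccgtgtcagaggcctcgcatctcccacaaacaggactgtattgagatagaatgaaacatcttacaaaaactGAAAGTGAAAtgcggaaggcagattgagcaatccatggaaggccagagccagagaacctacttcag

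Promoter entries were found for 6 of the 8 ligands, in 7 windows of 300 bases. Each motif was searched on both strands. The NF-kB consensus was in 1 window, that of Ltb, and in 8.46% of all 32851 mouse promoter windows. TGANTCA was in the windows of Tnfsf14 and Tnfsf13b (7.81% of all), the GAAA repeat in the second Tnfsf13b window (3.44% of all), and TATAAA in that of Tnf (13.6% of all). The matches of different motifs did not overlap in these windows. Such matches describe the letters of a short window and say nothing of binding.

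**Figure D2:**
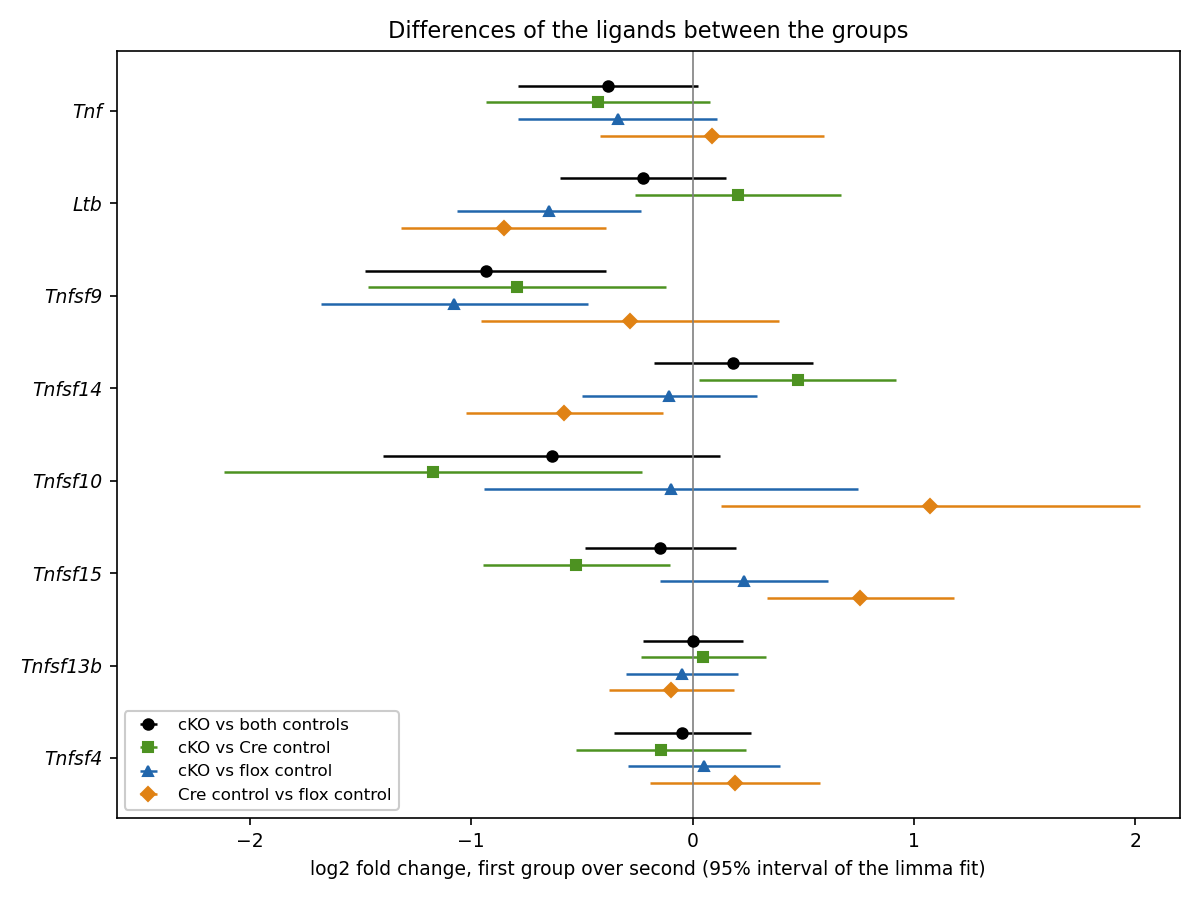
Log2 fold changes of the 8 ligands in 4 comparisons with 95% intervals from limma; the first named group is over the second, and Tnfsf4 comes from the fit without a filter. The intervals of Tnfsf9 lie below 0 in all 3 comparisons of the cKO, whereas those of Tnfsf10 and Tnfsf15 lie off 0 only where the Cre control is compared with one other group.

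Counted over the 7 tested ligands, 5 were lower and 2 higher in the cKO than the mean of both controls. Of all 14002 probe sets tested, 46.6% were lower. The median log2 fold change was -0.22 for the ligands and 0.01 over all. Against each control taken singly, Tnf and Tnfsf9 were lower. Tnfsf10 was lower than the Cre control but only -0.10 (SE 0.38) against the flox control, where its sign turned in 4 of 17 alternatives. Ltb was 0.20 above the Cre control and Tnfsf15 was 0.23 above the flox control. The 2 higher ones, Tnfsf14 and Tnfsf13b, were -0.10 and -0.05 against the flox control. As the ligands were chosen with earlier results of these data known, the shares are given as descriptions. By limma 0 passed an adjusted p of 0.05, as did 0.00714% of all probe sets. At an unadjusted p under 0.05, 1 was lower, Tnfsf9, and 0 were higher, where 4.26% and 5.26% of all probe sets were. Leaving out cKO replicate 3 or flox control replicate 3 made it 3 lower, with Tnf and Tnfsf10 beside Tnfsf9. The cKO arrays lay below all controls in 1 ligand and above them in 0, against 2.25% and 2.11% of all probe sets. Against the Cre control, 3 ligands were lower at an unadjusted p under 0.05 (Tnfsf9, Tnfsf10 and Tnfsf15) and 1 was higher (Tnfsf14), beside 5.96% and 7.51% of all (13.5% in either direction), and 0 passed after adjustment (0.0714% of all). This count was 0 without Cre control replicate 1 and 0 without cKO replicate 2, and it was 2 without cKO replicate 1 (Tnfsf9 and Tnfsf10). The arrays of the same ligands did not overlap between these groups, as for 16% of all probe sets on the lower side and 18.5% on the higher side. Against the flox control, 2 were lower at an unadjusted p under 0.05 by limma (Tnfsf9 and Ltb) and 0 higher. This stands beside 3.98% and 4.28% of all (8.26% in either direction), and 0 passed after adjustment (0.0429% of all). The arrays of Tnfsf9 and Ltb did not overlap (6.31% of all on the lower side and 5.93% on the higher side). The count was 1, Tnfsf9, without flox control replicate 1 and cKO replicate 1. It was 3, with Tnf added, without cKO replicate 3.

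The control groups were also set against each other. At an unadjusted p under 0.05, 2 were lower in the Cre control than in the flox control (Ltb and Tnfsf14) and 2 were higher (Tnfsf10 and Tnfsf15), beside 7.86% and 6.85% of all probe sets (14.7% in either direction). Without Cre control replicate 1, and likewise without flox control replicate 2, 2 of these 4 were left, Ltb and Tnfsf15. Without flox control replicate 3, Tnfsf10 dropped out, and without flox control replicate 1 and cKO replicate 1, Tnfsf14 did. The arrays of these 4 did not overlap, as in 17.4% of all probe sets on the lower side and 15.3% on the higher side. After adjustment 0 passed by limma (0.486% of all), and the lowest adjusted p was 0.109. So for Ltb, Tnfsf14, Tnfsf10 and Tnfsf15 the cKO value depended on which control it was set against, in size or in sign, while Tnfsf9 and Tnf were lower on average than each control.

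**Figure D3:**
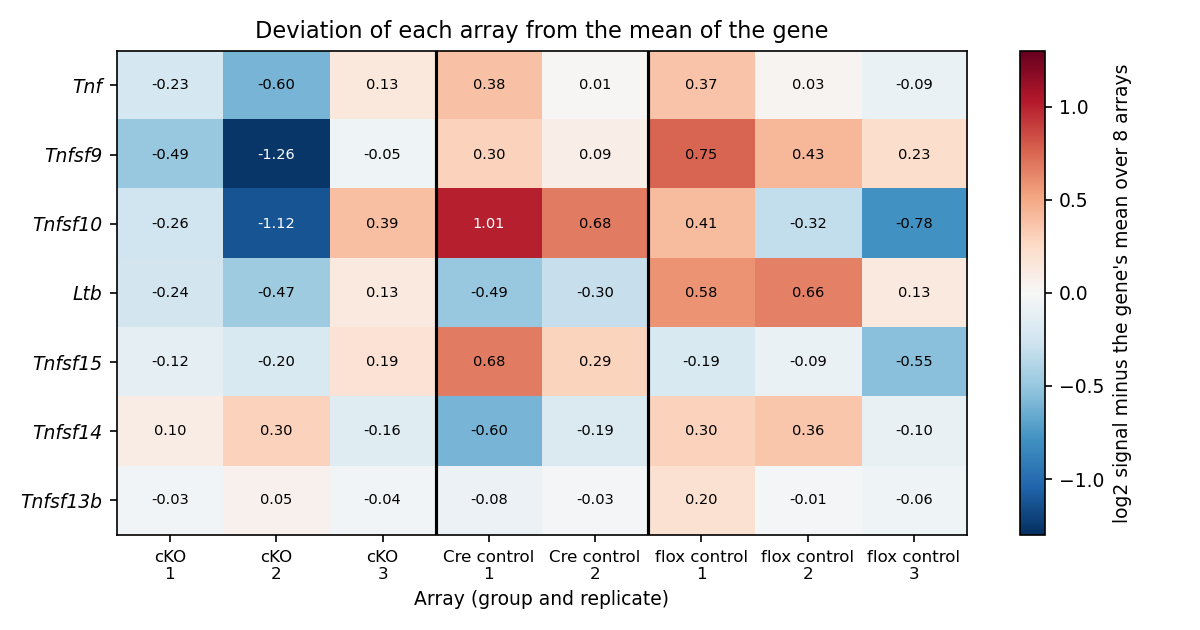
Log2 signal of each tested ligand minus its mean over the 8 arrays, by array; red is above and blue below the mean, and lines divide cKO, Cre control and flox control. cKO replicate 2 is lowest in Tnf (-0.60), Tnfsf9 (-1.26) and Tnfsf10 (-1.12), and Tnfsf14 runs the other way.

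The order of the arrays within a group was set side by side over the ligands. Among the cKO arrays, replicate 2 was the lowest and replicate 3 the highest in 5 of the 7 tested ligands (Tnf, Ltb, Tnfsf9, Tnfsf10 and Tnfsf15), and this order was turned round in the other 2, Tnfsf14 and Tnfsf13b. Among the flox controls, replicate 3 was the lowest in all 7, and replicate 1 the highest in 4 (Tnf, Tnfsf9, Tnfsf10 and Tnfsf13b). Of the Cre controls, replicate 1 was the higher in 4 (Tnf, Tnfsf9, Tnfsf10 and Tnfsf15) and the lower in the other 3 (Tnfsf14, Tnfsf13b and Ltb).

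Receptors of these ligands were described as a list of 14, of which 13 were tested. Against both controls 7 were lower and 6 higher (median log2 fold change -0.00117), 0 passed by limma, and 1 was lower and 2 were higher at an unadjusted p under 0.05, beside 4.26% and 5.26% of all probe sets. The 2 higher ones are receptors of TRAIL in the mouse. They are Tnfrsf10b, its death receptor (0.40, SE 0.12, adjusted p = 0.369 by limma), and Tnfrsf23, a decoy receptor (0.57, SE 0.15, adjusted p = 0.341). Against the Cre control they were 0.51 (SE 0.15) and 0.83 (SE 0.19), and against the flox control 0.28 (SE 0.13) and 0.32 (SE 0.17). For Tnfrsf23 the Cre control lay below the flox control (-0.50, SE 0.19). Tnfrsf11b, also a listed TRAIL receptor, differed from both controls by 0.006 (SE 0.12). Tnfrsf10b was dim, at 5.88 to 6.22 in the cKO, 5.45 to 5.52 in the Cre control and 5.61 to 5.88 in the flox control, and the cKO overlapped the flox control. Tnfrsf23 read 11.06, 11.08 and 10.74 in the cKO, 9.86 and 10.41 in the Cre controls, and 10.79, 10.48 and 10.63 in the flox controls, and here too the cKO overlapped the flox control. Tnfrsf23 has a close paralogue, Tnfrsf22 (0.22 by the same measure, SE 0.13), and whether their probes share signal was not tested. The lower one was Tnfrsf13b, a BAFF receptor known mainly from B cells (-0.32, SE 0.11, adjusted p = 0.423), which read near the filter level at 5.15 to 5.49 in the cKO, 5.50 to 5.57 in the Cre control and 5.62 to 5.82 in the flox control.

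Of 9 genes of ligand cleavage, 8 were tested, with 4 lower and 4 higher than the mean of both controls (median 0.03). By limma 0 passed, and 2 were lower and 1 was higher at an unadjusted p under 0.05, beside 4.26% and 5.26% of all probe sets. Adam17, the protease that releases TNF from the membrane, read 10.68, 11.16 and 10.87 in the cKO, 9.95 and 10.01 in the Cre controls, and 10.36, 10.57 and 10.60 in the flox controls. All 3 cKO arrays were above all 5 controls, as in 2.11% of all probe sets, by 0.66 in log2 (SE 0.13, 95% interval 0.37 to 0.95, unadjusted p = 0.000477, adjusted p = 0.239). It was 0.92 (SE 0.16, adjusted p = 0.0825) against the Cre control and 0.39 (SE 0.14, adjusted p = 0.528) against the flox control, and the Cre control lay below the flox control by 0.53 (log2 -0.53, SE 0.16). Rhbdf2, the iRhom that carries ADAM17 to the cell surface, read lower in the cKO (-0.31, SE 0.12, adjusted p = 0.471), as did Furin, the protease that releases BAFF and activates ADAM17 (-0.40, SE 0.15, adjusted p = 0.442). In both of these, cKO replicate 3 lay within the range of the controls.

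**Figure D4:**
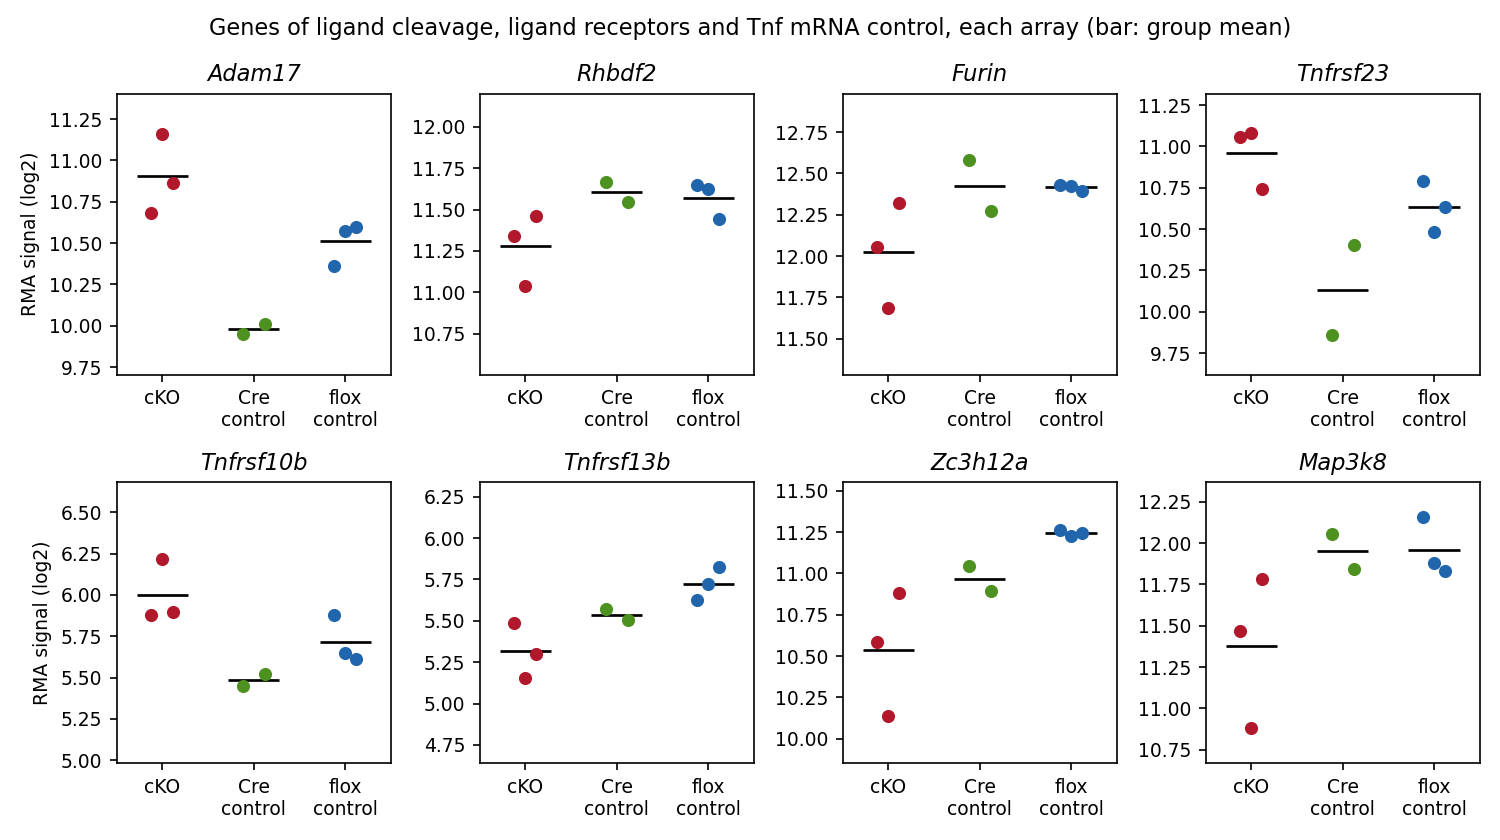
RMA signal (log2) of 8 genes of ligand cleavage, ligand receptors and Tnf mRNA control in every array; points are arrays, the bar is the group mean, and every panel spans the same log2 range. Adam17 is higher in the 3 cKO arrays (10.68 to 11.16) than in all 5 controls, and Zc3h12a and Map3k8 are lower in the cKO than in the controls.

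All 12 genes of Tnf mRNA control were tested, with 4 lower and 8 higher than the mean of both controls (median 0.11). By limma 0 passed the adjusted threshold. At an unadjusted p under 0.05, 2 were lower and 1 was higher, beside 4.26% and 5.26% of all probe sets. The cKO arrays lay below all controls in 3 of these genes and above them in 1, against 2.25% and 2.11% of all probe sets. Zc3h12a, the RNase Regnase-1, read 10.58, 10.14 and 10.88 in the cKO, 11.04 and 10.89 in the Cre controls, and 11.26, 11.23 and 11.25 in the flox controls (-0.57, SE 0.16, adjusted p = 0.343). The cKO was below all controls, with replicate 3 next to the second Cre control. Map3k8, the kinase TPL2 that drives Tnf production downstream of LPS, was likewise below all controls in each cKO array (-0.58, SE 0.19, adjusted p = 0.403). Zfp36l2, an RNA-binding protein of the tristetraprolin family, was higher on average (0.93, SE 0.38, adjusted p = 0.488) with overlapping arrays, and Zfp36 itself, tristetraprolin, differed by -0.03 (SE 0.10). Of 24 listed genes of receptor signalling, 21 were tested, with 14 lower and 7 higher (median -0.15) and 0 passing by limma. At an unadjusted p under 0.05, 5 were lower and 1 was higher, beside 4.26% and 5.26% of all probe sets. The 3 with the smallest p were Tnfaip3, the ubiquitin-editing inhibitor A20 (-0.43, SE 0.10), Ikbkg, the IKK subunit NEMO (0.52, SE 0.17), and the adaptor Traf1 (-0.31, SE 0.12), with adjusted p of 0.319, 0.398 and 0.472. Against the flox and Cre controls in turn, Tnfaip3 was -0.44 and -0.42, and Ikbkg was 0.48 and 0.57. Traf1 depended on the control, at -0.50 (SE 0.14) against the flox control and -0.11 (SE 0.15) against the Cre control, which it overlapped. Over all probe sets, 9.52% had an unadjusted p under 0.05.

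**Figure D5:**
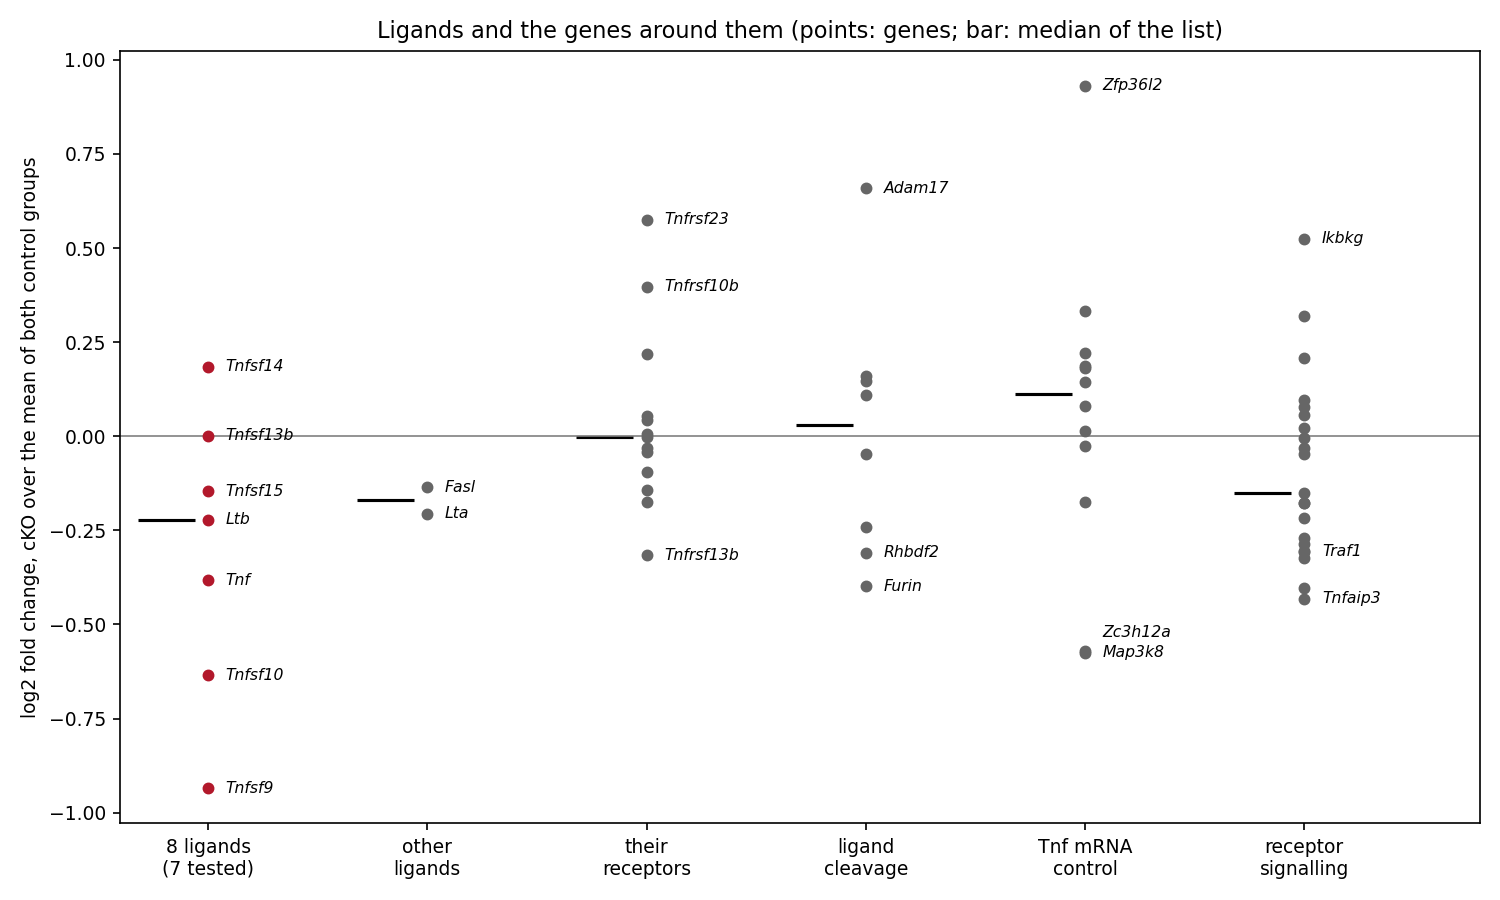
Log2 fold change of the cKO over the mean of both control groups for the tested ligands (red) and 5 lists of related genes (grey); each point is a gene and the short bar left of the points is the median of the list. The medians run from -0.22 in the ligands to 0.11 in Tnf mRNA control, and single genes from -0.93 (Tnfsf9) to 0.93 (Zfp36l2).

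Other superfamily ligands were at the edge of detection. Of 10 listed, 8 had a probe set of their own and 2 were tested, Lta and Fasl, the ligand of the death receptor Fas. Both averaged lower than the mean of both controls (-0.21, SE 0.17, and -0.14, SE 0.16) with 0 passing at an adjusted or an unadjusted p of 0.05 by limma. Fasl was -0.36 (SE 0.19) against the Cre control but 0.09 (SE 0.17) against the flox control. Cd40lg, Cd70, Tnfsf8, Tnfsf11, Tnfsf18 and Eda were below the filter. Tnfsf8, the neighbour of Tnfsf15 on chromosome 4, read 3.96 to 4.81.

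Markers of other cell types also read differently between the groups, with 0 past the adjusted threshold by limma. In these pooled samples fewer cells of a type and less RNA per cell cannot be told apart. Of 12 T and NK cell markers 10 had a probe set, and their summed linear signal was 874 to 1132 in the cKO, 1280 to 1296 in the Cre control and 717 to 1012 in the flox control, with 7 of 8 tested markers higher in the Cre control than in the flox control (median 0.71). The T cell marker Cd4 and the NK cell marker Klrb1c were below the filter. Of 10 monocyte and macrophage markers 9 had a probe set, and their sum was 5673 to 7937 in the cKO, 9286 to 9746 in the Cre control and 6257 to 8919 in the flox control. Both sums were highest in the Cre control, as were Tnfsf10 and Tnfsf15, and their part in those values was not tested. The sum of 6 dendritic cell markers was 3182 to 3956 in the cKO, 3557 to 4120 in the Cre control and 2336 to 3102 in the flox control, lowest in the flox control, where Ltb was highest. B cell markers summed to 195 to 217 in the cKO, 183 to 199 in the Cre control and 189 to 210 in the flox control, with Cd79a, Ms4a1 and Ebf1 below the filter. Neutrophil markers summed to 63785 to 66727 in the cKO, 59811 to 61778 in the Cre control and 66605 to 67263 in the flox control, with 9 of 10 lower in the Cre control than in the flox control (median -0.17). They were lowest in the Cre control, as were Tnfsf14 and, on average, Ltb. Eosinophil markers summed to 666 to 1140 in the cKO, 689 to 1242 in the Cre control and 526 to 788 in the flox control, and 3 of 3 tested were higher in the cKO and in the Cre control than in the flox control. Beside the low Tnfsf9 of the cKO, monocyte and macrophage markers were lower in 8 of 9 against the Cre control (median -0.38) and in 6 of 9 against both controls (median -0.11), while 5 of 9 were higher against the flox control (median 0.06). Dendritic cell markers were higher than the mean of both controls in 5 of 6 (median 0.17). Of these 6, 5 were higher against the flox control (median 0.28), and 4 were lower against the Cre control (median -0.10). Against both controls, 4 of 4 tested fibroblast markers (median 0.23), 3 of 3 of eosinophils (0.25) and 3 of 3 of B cells (0.08) were higher. So were 8 of 10 of neutrophils (0.02), 1 of 2 of mast cells and basophils (-0.02) and 3 of 8 of T and NK cells (-0.02). Fibroblast markers summed to 498 to 1204 in the cKO, 422 to 1083 in the Cre control and 567 to 1013 in the flox control. The part of these markers in the ligand values was not tested.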

How the data were processed

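The deposited values are log2 probe set intensities, deposited by the authors after RMA in Affymetrix Expression Console, per the series' design text. For software version and genome build the sources used gave nothing. RNA and labelling kits differ between the design text and the labels' protocols. Groups come from the genotype labels. The design text states more Cre control pools than the 2 analysed here. Nothing was rescaled.

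Of 34472 probe sets, 23521 had 1 gene symbol, and the 14002 of these above the median of all values (5.45) on at least 2 arrays were tested (13296 genes). Symbols were updated by gene identifier with RefSeq (GRCm38.p6, 23328 of 23521 matched). limma 3.58.1 in R 4.3.3 fitted 3 groups over 8 arrays (5 residual and 4.69 prior degrees of freedom) with two-sided tests and Benjamini-Hochberg adjustment over all probe sets tested. Fold changes against both controls use the mean of the 2 control group means. An exact permutation test over 56 splits was run on each of the 8 ligands. The number of arrays limits the precision. Replicates are independent pools of mice per the design text, so p-values measure the spread between pools.

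The ligands and lists were chosen with earlier results of these data known. The genes named are all ligands, Arf6, in each list those past the threshold or else the 3 of smallest p against both controls, and for each tested ligand the 3 genes of highest Pearson correlation with it (predicted genes and small RNAs left out), of which 1 is not reported here. Other genes are named from the lists as neighbours or paralogues of those, or as untested members, chosen after their values were seen. Lists use the brightest tested probe set per gene. The fit was tested on simulated data. The alternatives were other filters, scalings, variance models, array weights, fits of the compared groups, and leaving out arrays.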

Additional observations from a re-analysis of the deposited data

How the results depend on the processing

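No call was made on any ligand, and the direction of Tnfsf9 and of Tnf against both controls, and of Ltb and Tnfsf15 between the controls, held in every alternative run. Array weights brought 3 ligands past an adjusted p of 0.05 between Cre control and flox control: Ltb (-0.96, adjusted p = 0.0143, with 0.0143 to 0.541 over its alternatives), Tnfsf14 (-0.67, 0.0448, range 0.0448 to 0.754) and Tnfsf15 (0.65, 0.0449, range 0.0449 to 0.59). Signs turned where values were near 0. Tnfsf13b against both controls was -0.0464 with quantile scaling and -0.0284 to 0.0403 over single left-out arrays (0.0539 without flox control replicate 1 and cKO replicate 1). Against the Cre control Tnfsf13b was -0.0215 with quantile scaling, and against the flox control it was 0.0451 without flox control replicate 1 and cKO replicate 1, and -0.0967 to 0.0315 over single left-out arrays. Tnfsf10 against the flox control was 0.0507 with array weights, 0.19 without flox control replicate 1 and cKO replicate 1, and -0.46 to 0.30 over single left-out arrays. Tnfsf14 against the flox control ranged from -0.247 to 0.0147, and Tnf between the controls from -0.094 to 0.271, over single left-out arrays. The cause of these turns was not tested. Probe sets past the threshold against both controls numbered 1, but 13 with array weights, 0 (1010 at an unadjusted p under 0.05 by limma) without flox control replicate 1 and cKO replicate 1, and 0 to 31 over single left-out arrays, with 0 without flox control replicate 2 or either Cre control, 3 without cKO replicate 2 and 31 without cKO replicate 3. Against the flox control 6 became 12 with array weights, 0 with only the groups compared (951 unadjusted), 0 without flox control replicate 1 and cKO replicate 1 (719 unadjusted), and 0 to 11 over single left-out arrays, with 0 without cKO replicate 1, flox control replicate 1 or 2, or either Cre control. Against the Cre control 10 became 5 with no filter, 3 with a stricter filter, 145 with array weights, 5 with only the groups compared, 4 without flox control replicate 1 and cKO replicate 1, and 0 to 67 over single left-out arrays, with 0 without cKO replicate 1 or either Cre control, 3 without flox control replicate 2, 67 without cKO replicate 3 and 32 when flox control replicate 1 was dropped. Between the controls 68 became 819 with array weights, 131 with only the groups compared, 24 without flox control replicate 1 and cKO replicate 1, and 0 to 235 over single left-out arrays, with 0 without either Cre control, 18 and 31 without flox control replicates 2 and 1, 21 without cKO replicate 1, 235 without cKO replicate 2 and 107 when flox control replicate 3 was dropped. Where a left-out array gave 0, 704 to 1495 probe sets had an unadjusted p under 0.05. Leaving out a Cre control leaves 1 array there, which is assumed to vary like the other groups. Tnfsf4 was below the filter and has a value only in the fit without one. No paired analysis was possible because the labels give the groups no shared replicate numbers.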

Other observations

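Some genes followed single ligands closely over the 8 arrays, which include the differences between the groups, so the correlations are given as descriptions. The genes were picked for the highest correlation among the probe sets tested on these same arrays. A high correlation and a similar group difference follow in part from that choice and are no separate evidence. How high the best correlation would be by chance was not tested. Tnfsf9 was most like Batf, an AP-1 family transcription factor (Pearson's r = 0.995, Spearman correlation 1, n = 8 arrays), followed by Gas7 (r = 0.993). Batf read -0.89 (SE 0.24) in the cKO against both controls, next to -0.93 for Tnfsf9. Tnfsf10 was most like Pml, the organiser of interferon-inducible nuclear bodies (r = 0.991), Calhm6 (r = 0.991) and Larp1 (r = 0.987). As Cre control minus flox control, Calhm6 read 1.42 and Pml 0.63, next to 1.07 for Tnfsf10. Tnfsf15 was most like Rasa4 (r = 0.969), Cfap46 and the chemokine gene Ccl5 (r = 0.954 for each), and Ccl5 read 0.83 as Cre control minus flox control.

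Tnf was most like Meig1 (r = 0.984), Efcab14 (r = 0.979) and Rsph3a (r = 0.977). Tnfsf14 was most like Arf1, a class I ARF GTPase (r = 0.976), Castor1 (r = 0.975) and Mepce (r = 0.974). Ltb was most like Phospho2 (r = 0.976), Txndc9 (r = 0.963) and Maged2 (r = 0.961). Tnfsf13b was most like Cass4 (r = 0.982), Chst8 (r = 0.974) and Aspscr1 (r = 0.972), and the Spearman correlation was lower there, at 0.905, 0.857 and 0.667.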
